A study of Saccharomyces cerevisiae with 40 samples.

Results

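The comparison described here set budding yeast cells in which nonsense-mediated mRNA decay (NMD) had been switched back on for 60 min against cells that lacked it throughout. It rests on 8 of the 40 Affymetrix yeast arrays of the study. These are the 4 arrays labelled GAL-NMD2 at 60 min and the 4 labelled nmd2D at 60 min, chosen by strain and time label and paired by biological replicate number. Both strains shared a disruption of NMD2 by HIS3 (nmd2::HIS3) in the host HFY1400. In GAL-NMD2 the host carried a plasmid from which the GAL1 promoter, switched on by galactose, drives NMD2, and in nmd2D it carried the empty vector. Both were grown at 30 °C in synthetic medium without uracil, and 60 min is the last of 5 sampling times (0, 10, 20, 40 and 60 min). The submitted descriptions differ on the sugar: the overall design has cells in raffinose that then received galactose, while the growth protocol given with each array names galactose. NMD2 therefore came from a plasmid and a foreign promoter, and the comparison is between 2 plasmid-bearing derivatives of 1 host. The replicates are described as independent. Unless a fit without the pairing is named, the p-values at 60 min measure the spread of the strain differences over the replicate pairs.

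NMD is the pathway that destroys mRNAs on which ribosomes stop at a premature termination codon. Its core in yeast is made of the RNA helicase Upf1 (gene NAM7), Upf2 (gene NMD2), which bridges its partners, and Upf3. Besides transcripts with nonsense mutations, it acts on normal mRNAs with upstream reading frames, leaky scanning of the start codon, frameshift signals or long 3' untranslated regions, and on unspliced or pseudogene transcripts. Without any 1 of the 3 core factors such mRNAs accumulate, and returning the missing factor allows their decay to resume.

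All values are signals of Affymetrix probe sets, scaled by the depositors to the same trimmed mean on every array. Where 4 values are given for a strain they stand in the order of replicates 1 to 4. Differences are GAL-NMD2 minus nmd2D on the scale log2(signal + 16), which understates changes of dim probe sets. A probe set was called where the Benjamini-Hochberg adjusted p of limma, over all 9275 non-control probe sets, was under 0.05. The arrays of a group correlated with r of 0.964 to 0.983 in GAL-NMD2 and 0.964 to 0.989 in nmd2D. The ratio of the 3' to the 5' actin control probe set was 1.42 to 2.79 in GAL-NMD2 and 1.46 to 2.81 in nmd2D. The median signal of an array was 65.6 ± 3.74 in GAL-NMD2 and 81.7 ± 3.18 in nmd2D (SD, n = 4 each), and the groups did not overlap. GAL-NMD2 replicate 2 stood apart from the other 3 arrays of its group at several genes that were high in those 3, described with the rises below. Without replicate 2 of both strains, 781 probe sets were called lower and 50 higher. Most mating-type markers read as those of a haploid a cell. The a-factor gene MFA2 averaged 1491 ± 399 in GAL-NMD2 and 1286 ± 202 in nmd2D, and the alpha-factor gene MF(ALPHA)2 averaged 12.8 ± 2.74 in GAL-NMD2 and 13.5 ± 1.44 in nmd2D (SD, n = 4 each). Less clear was MF(ALPHA)1, which averaged 41 in GAL-NMD2, with 103 in replicate 1, and 51 in nmd2D. The a-factor gene MFA1 averaged 47.9 in GAL-NMD2 and 47 in nmd2D by 1 probe set, and 230 and 274 by another.

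NMD2 itself was measured first. Its probe set read 1363, 1659, 1865 and 1727 in GAL-NMD2, against 897, 941, 1013 and 704 in nmd2D. Every GAL-NMD2 value lay above every nmd2D value (log2 difference 0.89, SE 0.12, adjusted p = 0.0034). The probe set was thus read in both strains, and which part of the gene it covers relative to the disruption was not analysed here. The strain difference for NMD2 was 0.20 at 0 min, so most of it appeared during the course: its gain between 0 and 60 min was 0.69 (SE 0.15, adjusted p = 0.0126).

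The galactose genes gave no call between the strains on the deposited scale. The galactokinase gene GAL1 averaged 3662 ± 1106 in GAL-NMD2 and 3155 ± 658 in nmd2D, GAL10, which encodes the epimerase, averaged 2642 ± 509.9 in GAL-NMD2 and 2501 ± 358 in nmd2D, and the transferase gene GAL7 averaged 2862 ± 401 in GAL-NMD2 and 2516 ± 349.6 in nmd2D (SD, n = 4 each). The values of the strains overlapped for all 3, and their log2 differences were 0.18 (adjusted p = 0.434), 0.07 (adjusted p = 0.754) and 0.18 (adjusted p = 0.314). The permease gene GAL2 had 0.10 (adjusted p = 0.459). After quantile normalization the signs of GAL1, GAL10 and GAL2 turned, without a call. None of the 14 measured genes of galactose use was called, where 14.4% of the 5656 genes measured by 1 probe set each were called lower and 0.937% higher. With median centring 7 of the 14 were called higher, GAL7 among them (0.44 (adjusted p = 0.0338)).

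URA3, the uracil synthesis gene widely used as a plasmid marker, read 416, 194, 396 and 270.5 in GAL-NMD2, against 2887, 834, 1264 and 1024 in nmd2D. The strains did not overlap (log2 difference -2.07, SE 0.18, adjusted p = 0.00074). URA3 had log2 differences of -1.82, -2.07, -2.57 and -2.07 at 0, 20, 40 and 60 min. It was not called at 0 min (SE 0.31, adjusted p = 0.501) or 20 min (adjusted p = 0.0825). HIS3, which both strains carry as the disruption cassette, read 342, 1057, 1523 and 1232 in GAL-NMD2, against 1024, 1579.9, 2177 and 1857 in nmd2D. HIS3 was called lower in GAL-NMD2 (log2 difference -0.80, SE 0.18, adjusted p = 0.0229) although the strains overlapped, and its other probe set gave a log2 difference of -1.03. Without replicate 2 neither probe set of HIS3 was called (adjusted p = 0.0688 and 0.0570), nor was either without the pairing (adjusted p = 0.393 and 0.348).

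At 60 min, most of the RNAs that differed between the strains were lower in GAL-NMD2. In such bulk cultures, fewer cells holding an RNA and less of it per cell cannot be told apart. Of the 9275 probe sets, 1296 were called lower in GAL-NMD2 (14.0%) and 118 were called higher (1.27%), so 91.7% of the calls were lower. Without the pairing by replicate number, 671 were called lower and 16 higher. Counted once per gene, 813 of 5656 genes were lower (14.4%) and 53 were higher (0.937%). The called falls had a median of -0.79 and the called rises a median of 0.53. A fall of at least 1 on the log2 scale was reached by 394 called probe sets, and a fall of at least 2 by 13. A rise of at least 1 was reached by 12.

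The calls came from a fit of the 4 pairs, so agreement in sign across those pairs is partly built into them. All 1296 were lower in GAL-NMD2 in each of the 4 pairs, and in 898 of them the 4 values of the strains did not overlap. Over all probe sets, called or not, all 4 GAL-NMD2 values lay below all 4 nmd2D values for 1101 (11.9%) and above them for 116 (1.25%). The rises were less uniform. Of the 118, 113 were higher in each of the 4 pairs and 46 had no overlap.

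The balance of falls and rises depends on how arrays are scaled, because the arrays of the strains differ in their median signal. Centring each array on its median added 0.26 to every difference, and then 863 probe sets were called lower and 2084 higher, so that 29.3% of the calls were lower. Quantile normalization gave 818 lower and 315 higher (72.2% lower), and a shift of each array by its median deviation, which added 0.08, gave 1116 and 291 (79.3% lower). The median difference over all probe sets was -0.04 on the deposited scale, 0.22 after centring, 0.06 after quantile normalization and 0.04 after the shift. Most probe sets thus lay above 0 after centring, and the counts called higher with median centring below are on that scale. Of the 1296, 860 were called lower after centring too, none was called higher, and all 118 rises were called again. The 15 largest falls named below were called lower under each of the 14 other settings tried, of which median centring was also part of how they were chosen. The 15 largest rises were less firm: 9 were called higher without the pairing, 11 in a fit of all 40 arrays without it, and 9, 13, 9 and 10 without replicate 1, 2, 3 and 4.

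Falls were found across the middle of the signal range, and rises at its bright end. Of 5 classes of 1855 probe sets each, ordered by mean signal over all 8 arrays, the dimmest had 4.85% called lower. The next 3 classes, with mean signals of 10.6 to 345, had 17.1%, 21.0% and 19.4% called lower. In the brightest class 7.49% were called lower and 4.47% higher, and its median difference was 0.12, against -0.04 over all probe sets. The plot of difference against signal shows this shape.

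**Figure D1:**
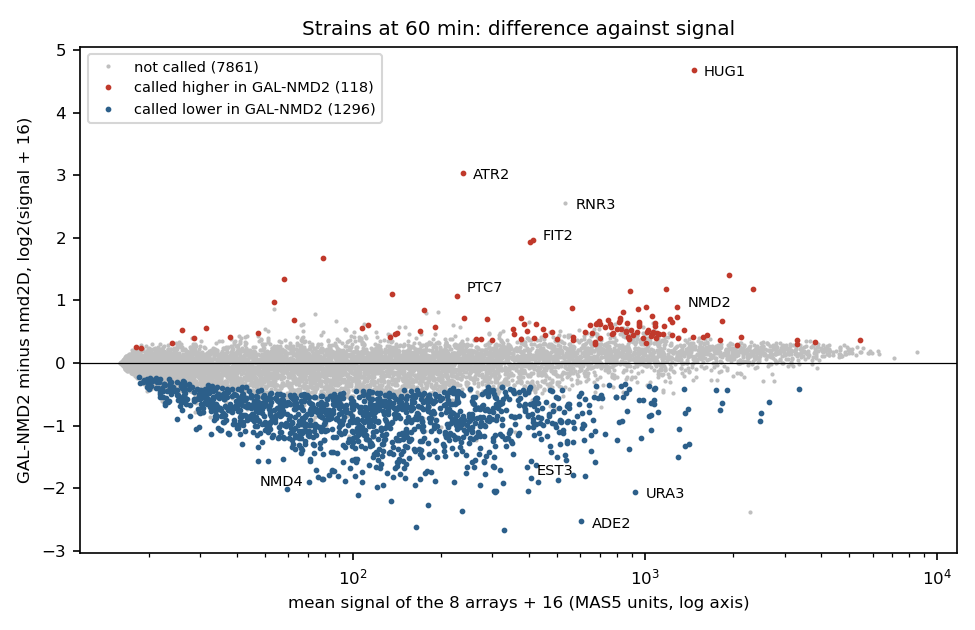
Log2 difference at 60 min, GAL-NMD2 minus nmd2D, of all 9275 probe sets (vertical axis) against their mean signal over the 8 arrays (horizontal log axis, MAS5 units, 16 added), with the 1296 called lower and the 118 called higher in colour. Falls spread across intermediate signals and reach -2.53 for ADE2 among named genes, while a few rises, led by HUG1 at 4.68, stand far from the rest.

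Falls were also unevenly spread over kinds of annotation. Among probe sets of genes known only by a systematic name, 132 of 537 were called lower (24.6%), against 745 of 5967 (12.5%) for genes with a standard name. Probe sets annotated with several genes had 75 of 328 called lower (22.9%), and those with no gene had 344 of 2443 (14.1%). No gene is named from the last of these.

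The largest falls joined genes of unrelated pathways. The 15 largest falls and 15 largest rises were chosen among probe sets without overlap between the strains, so their separation is not a further result. ADE2 encodes an enzyme of purine synthesis and read 135, 163, 153 and 198 in GAL-NMD2, against 866, 1077, 941 and 1169 in nmd2D. Every nmd2D value lay far above every GAL-NMD2 value (log2 difference -2.53, SE 0.09, adjusted p = 0.000102). YIR043C, a reading frame of no known role, read 26.7, 64.1, 79.2 and 74.7 in GAL-NMD2, against 342, 260, 576 and 334 in nmd2D. Its strains were as clearly apart (log2 difference -2.36, SE 0.22, adjusted p = 0.000972).

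ISC10, a gene needed for sporulation, read 44.4, 35.7, 57.3 and 44.1 in GAL-NMD2, against 351, 221, 329.9 and 232 in nmd2D. PET18 read 38.1, 27.1, 31 and 32.3 in GAL-NMD2, against 226, 169, 225 and 203 in nmd2D. RRT13 read 104, 97.3, 92.1 and 117 in GAL-NMD2, against 485, 451, 459.9 and 515 in nmd2D. In each of these 3 genes the GAL-NMD2 values were less spread than the gap between the strains, and their log2 differences were -2.27 (adjusted p = 0.000398), -2.20 (adjusted p = 0.000398) and -2.06 (adjusted p = 0.000398).

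PPT2 encodes the transferase that activates the mitochondrial acyl carrier protein, and read 83.8, 98.6, 107 and 121 in GAL-NMD2, against 468, 461, 510.5 and 448 in nmd2D. HRT1, the RING subunit of SCF ubiquitin ligases, read 87.6, 179, 186 and 216 in GAL-NMD2, against 553, 629.9, 592 and 692 in nmd2D. The uncharacterized YNL162W-A read 15.9, 11.6, 26.2 and 11 in GAL-NMD2, against 209, 69.8, 89.1 and 67.6 in nmd2D. None of the 3 overlapped between the strains, and their log2 differences were -2.05 (adjusted p = 0.000398), -1.85 (adjusted p = 0.000773) and -1.85 (adjusted p = 0.00316). Of the other large falls outside the gene groups below, YEL073C ranged over 16.7 to 50.7 in GAL-NMD2 and 103 to 239 in nmd2D and YER187W over 11.5 to 21.7 in GAL-NMD2 and 54.8 to 148 in nmd2D, with differences of -1.99 (adjusted p = 0.000415) and -1.85 (adjusted p = 0.00074).

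**Figure D2:**
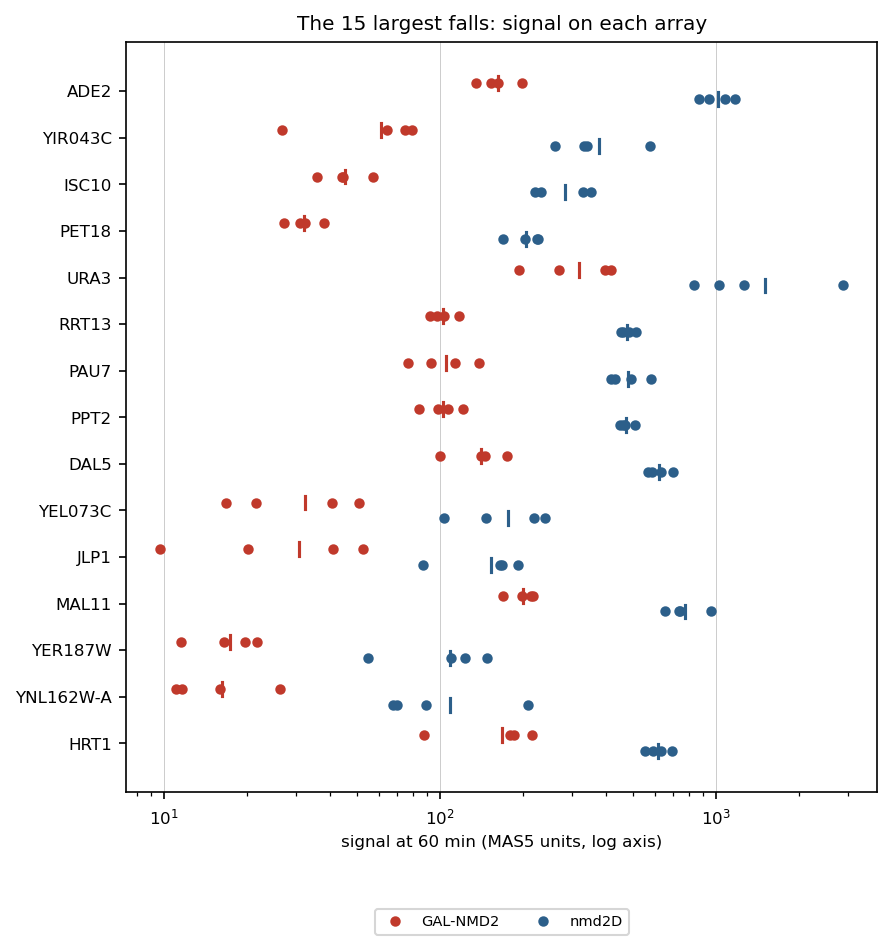
Signal at 60 min on each array (horizontal log axis, MAS5 units) of the 15 genes with the largest falls, with GAL-NMD2 arrays above nmd2D arrays in each row and a bar at each group mean. Lack of overlap between the strains was a condition for being listed, and the log2 differences run from -2.53 for ADE2 to -1.85 for HRT1.

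Factors of NMD were themselves among the RNAs that differed. Of the 5 measured, 3 were lower in GAL-NMD2, where 14.4% of all genes were lower. The 1 called higher was NMD2, which the plasmid supplies in GAL-NMD2, so its rise was set by the design. NMD4, whose protein binds Upf1, read 19.5, 18.8, 17.3 and 14 in GAL-NMD2, against 109, 99.9, 84.5 and 119 in nmd2D, with no overlap (log2 difference -1.83, SE 0.14, adjusted p = 0.000616). EBS1, a relative of the telomerase gene EST1 that takes part in NMD, read 147, 169, 176 and 148 in GAL-NMD2, against 235, 290, 324 and 374 in nmd2D, also without overlap (log2 difference -0.86, SE 0.13, adjusted p = 0.00539). NAM7, which encodes Upf1, averaged 83.5 ± 27.2 in GAL-NMD2 and 131 ± 39.6 in nmd2D (SD, n = 4 each). Its strains overlapped, and its difference was -0.56 (adjusted p = 0.0363). No fit of 3 pairs called it (adjusted p of 0.0637 to 0.108), nor did the fit without the pairing (adjusted p = 0.314). UPF3 had 0.36 (adjusted p = 0.209) and was not called.

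The general machinery of mRNA decay gave no call on the deposited scale. None of the 17 genes of decapping and 5'-to-3' decay was called (median difference -0.04, which turns positive under each of the other scalings). Nor was any of the 11 measured genes of deadenylation (median 0.08) or of the 15 measured genes of 3'-to-5' decay (median 0.01). The median over all genes was -0.04, and 14.4% of them were called lower and 0.937% higher. With median centring 7 of the 11 genes of deadenylation, 3 of the 17 of decapping and 1 of the 15 of 3'-to-5' decay were called higher.

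Among 32 measured mRNAs reported as NMD substrates in yeast, 16 were lower in GAL-NMD2, none was higher and 16 were not called. The background is 14.4% of genes called lower. The median difference of the list was -0.53, and the medians of the 4 pairs ran from -0.60 to -0.44. After median centring 15 of the 32 were called lower and ADR1, CBF5 and RPS0B were called higher. Without replicate 2 of both strains 13 were called lower.

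Telomere maintenance supplied 5 of the called substrates. EST1, EST2 and EST3 encode telomerase subunits, and STN1 and TEN1 encode proteins that cap chromosome ends. STN1 read 44.4, 44, 75.7 and 56.5 in GAL-NMD2, against 231, 148, 268 and 199.9 in nmd2D. EST3 read 163, 138, 198 and 195 in GAL-NMD2, against 602, 536, 689 and 497 in nmd2D. TEN1 read 30.9, 27.8, 23.6 and 26.5 in GAL-NMD2, against 108, 92, 103 and 79.1 in nmd2D. In all 3 every GAL-NMD2 value lay below every nmd2D value, and the log2 differences were -1.67 (adjusted p = 0.00071), -1.66 (adjusted p = 0.000559) and -1.36 (adjusted p = 0.00102). EST1 averaged 23.1 ± 3.36 in GAL-NMD2 and 92 ± 29.7 in nmd2D, and EST2 averaged 20.7 ± 4.59 in GAL-NMD2 and 59.3 ± 12.5 in nmd2D (SD, n = 4 each). Their differences were -1.43 (adjusted p = 0.00372) and -1.03 (adjusted p = 0.00325). Of the 9 other telomerase and capping genes measured, 2 were called lower, where 14.4% of all genes were. Both were named after their values were seen. They were YKU70, a subunit of the Ku end-binding complex (-0.52 (adjusted p = 0.0304)), and the checkpoint kinase gene TEL1 (-0.63 (adjusted p = 0.00848)). No fit of 3 pairs called YKU70 (adjusted p of 0.0531 to 0.161; 0.0595 without the pairing) and TEL1 was not called without replicate 3 (adjusted p = 0.0533).

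Several substrates carry upstream reading frames, on which ribosomes can terminate before the main one. CPA1 encodes a subunit of the arginine-specific carbamoyl phosphate synthetase and is a textbook case, through the peptide encoded by its upstream frame. It read 1346, 1841, 1794 and 1682 in GAL-NMD2, against 2171, 3692, 3567 and 3516 in nmd2D. All GAL-NMD2 values were below all nmd2D values (log2 difference -0.93, SE 0.09, adjusted p = 0.00112), although nmd2D replicate 1 was well below the other 3. COX19, a mitochondrial protein needed for assembly of cytochrome oxidase, read 85.8, 119, 82.2 and 107 in GAL-NMD2, against 244, 447, 262 and 485 in nmd2D, without overlap (log2 difference -1.67, SE 0.14, adjusted p = 0.000717). FZF1, a regulator of sulfite efflux, had -0.90 (adjusted p = 0.0181), and INO2, an activator of phospholipid synthesis, had -0.73 (adjusted p = 0.0061). The magnesium transporter gene ALR1 had -0.72 (adjusted p = 0.00828). Of 28 measured mRNAs with known upstream frames, 7 were called lower (25%, against 14.4% of all genes) and none higher. The list's median of -0.16 turns positive with median centring. Of those 7, 6 are also on the substrate list, and the transporter gene HOL1 was the 1 call among the 21 that are not (-0.56 (adjusted p = 0.01)). HOL1, named after its values were seen, was not called without replicate 2 (adjusted p = 0.0537) or replicate 3 (adjusted p = 0.0528). Leaving out replicate 2, 3 or 4 ended the call of FZF1 (adjusted p of 0.0627 to 0.0744). Calls lost without the pairing were FZF1, INO2, ALR1 and HOL1 (adjusted p of 0.0516 to 0.264).

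PPR1, the activator of the pyrimidine genes and a long-known natural NMD substrate, read 61.2, 94.3, 64.6 and 62.1 in GAL-NMD2, against 168, 120.3, 95.2 and 116 in nmd2D. The strains did not overlap (log2 difference -0.70, SE 0.18, adjusted p = 0.037), and GAL-NMD2 replicate 2 stood above the other 3 of its group. Leaving out any 1 of the 4 pairs ended this call, with adjusted p of 0.0606 to 0.102, and so did leaving out the pairing (adjusted p = 0.0752). PGA1, a protein of the endoplasmic reticulum needed for GPI anchors, read 50.6, 79.6, 31.2 and 69 in GAL-NMD2, against 177, 252, 109 and 289 in nmd2D and was among the larger falls (log2 difference -1.57, SE 0.13, adjusted p = 0.000705). UBC12, the conjugating enzyme for the ubiquitin-like Rub1, had -1.20 (adjusted p = 0.00812). DAL7, an enzyme of allantoin use, had -1.15 (adjusted p = 0.00353), and the activator of glycolytic genes GCR1 had -0.49 (adjusted p = 0.023), which no fit of 3 pairs called (adjusted p of 0.0555 to 0.0897).

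Substrates without a call included some with bright signals and some with dim ones, for which the scale understates changes. Means in GAL-NMD2 and nmd2D were 5.7 and 7.0 for MER1, 7.1 and 11.7 for REV7, 12.1 and 10.3 for SPT10, and 21.3 and 19.8 for UBP7. The ribosomal protein genes RPL28 and RPS0B had differences of 0.03 and 0.15. In RPL28 it is the unspliced pre-mRNA that is the known substrate, and which form its probe set reads was not analysed here. The meiotic splicing factor gene MER1 had -0.09 and the Mediator gene SRB7 had -0.03. CTF13 (-0.29), MAK31 (-0.30), REV7 (-0.26), KCH1 (-0.20), COX23 (-0.37) and SSY5 (-0.58) were below 0 without a call. COX23 and SSY5 did so with no overlap between the strains, at adjusted p of 0.0977 and 0.0588. SPT10, UBP7, OCA4, ADR1, CBF5 and ATX1 lay between 0.01 for OCA4 and 0.13 for ADR1. Most of these small uncalled differences turned sign under some setting, as listed with the sensitivity of the results.

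Of 8 genes that laboratory strains often carry as mutant alleles, 6 were lower in GAL-NMD2 and none higher, where 14.4% of genes were lower. Their median difference was -1.19, and 4 were called lower without replicate 2 of both strains. Which alleles this host carries is not given in the sources used here. Besides ADE2, URA3 and HIS3, the 6 were the tryptophan synthesis gene TRP1, the arginine permease gene CAN1 and the leucine synthesis gene LEU2. HIS3 is also the disruption cassette of both strains. URA3 had a difference of -1.82 at 0 min, without a call, and its change from 0 to 60 min was -0.25 (limma adjusted p = 0.856). The count and the median are therefore not of mutant alleles alone. TRP1 read 69.6, 177, 98.9 and 219.5 in GAL-NMD2, against 366, 438, 530.1 and 521 in nmd2D. CAN1 read 309, 410.1, 196 and 384 in GAL-NMD2, against 799, 1221, 784 and 1145 in nmd2D. Both were fully separated (-1.71 (adjusted p = 0.00243) and -1.58 (adjusted p = 0.000559)). LEU2 read 2540, 2786, 2973 and 3179.6 in GAL-NMD2, against 3501, 3731, 4441 and 3692 in nmd2D, and its smaller difference was -0.42 (adjusted p = 0.0184). Its strains did not overlap either, but it was not called without replicate 1, 2 or 3 (adjusted p of 0.0643 to 0.125) or without the pairing (adjusted p = 0.0912). The lysine gene LYS2 (-0.01 (adjusted p = 0.973)) and the methionine gene MET17 (0.19 (adjusted p = 0.194)) were not called.

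The pathways around these genes held small numbers of calls, where 14.4% of all genes were lower and 0.937% higher. In purine synthesis, 2 of 17 measured genes were lower (11.8%), ADE2 and ADE8 (-0.55), and 1 was higher, ADE3, which encodes the enzyme of folate-bound one-carbon units. ADE3 read 1765, 2495, 2573 and 2053 in GAL-NMD2, against 956, 1513, 1758 and 1396 in nmd2D, without overlap (log2 difference 0.67, SE 0.09, adjusted p = 0.00336), and without the pairing it was not called (adjusted p = 0.0891). In pyrimidine synthesis, 4 of 13 were lower (30.8%): URA3, PPR1, the kinase gene URA6 (-0.85) and the dihydroorotate dehydrogenase gene URA1 (-0.44). Of 30 genes of general amino acid control, 2 were lower (6.67%), HIS3 and the leucine regulator LEU3 (-0.74). In arginine metabolism, 3 of 13 were lower (23.1%), namely CPA1 and the regulators ARG80 (-0.97) and ARG81 (-0.65). At least 1 fit of 3 pairs did not call ADE8, URA1, LEU3 and ARG81 (adjusted p of 0.0504 to 0.111). Also lost without the pairing were ADE8, URA1, LEU3 and ARG80 (adjusted p of 0.0807 to 0.287).

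Of 28 measured genes for the use of poor nitrogen sources, 12 were called lower and none higher (median -0.28), where 14.4% of genes were lower. With median centring 8 were lower and 6 higher, and the median was -0.03. Without replicate 2 of both strains 8 were lower. DAL5, the allantoate permease gene, read 175, 146, 100.4 and 141 in GAL-NMD2, against 567, 699, 585 and 635 in nmd2D. MEP2, the high-affinity ammonium permease and sensor, read 135, 126, 85.1 and 90 in GAL-NMD2, against 394, 395, 286 and 430.3 in nmd2D. The urea permease gene DUR3 read 54.3, 48.4, 36.5 and 40.8 in GAL-NMD2, against 178, 173, 154 and 125 in nmd2D. None of these overlapped, and their differences were -2.04 (adjusted p = 0.000534), -1.66 (adjusted p = 0.000705) and -1.51 (adjusted p = 0.000717). Of 25 amino acid permeases and their regulators, 5 were lower (20%, against 14.4% of all genes), while the median of the list was 0.10. They were CAN1, the amino acid sensor SSY1 (-1.09), ALP1 (-0.86), AGP3 (-0.54) and, named after its values were seen, STP3 (-0.35). The calls lost in at least 1 fit of 3 pairs were ALP1, AGP3 and STP3 (adjusted p of 0.0577 to 0.229), and all 3 were lost without the pairing too. With median centring 3 of the 25 were lower and 8 higher.

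Genes of maltose uptake and hydrolysis were lower in 5 of 8 measured (62.5%, against 14.4% of all genes), and none was higher. Their median was -0.72. MAL11, which encodes an alpha-glucoside transporter, read 213, 198, 169.7 and 217 in GAL-NMD2, against 655, 744, 737 and 960.3 in nmd2D. YPR196W, a regulator of maltose genes by similarity, read 18.8, 26.5, 15.3 and 17.6 in GAL-NMD2, against 105, 86.4, 57 and 115 in nmd2D. Both had no overlap (-1.87 (adjusted p = 0.000418) and -1.56 (adjusted p = 0.00152)). The maltose permease gene MAL31 had -1.26 (adjusted p = 0.0011) and the isomaltase gene IMA5 -0.76 (adjusted p = 0.00525). The fifth was the activator gene MAL13 (-0.68 (adjusted p = 0.034)), named after its values were seen, whose call was lost without replicate 2, 3 or 4 (adjusted p of 0.0979 to 0.133) and without the pairing (adjusted p = 0.345). These genes lie in related families at chromosome ends, and probe sets may read several members.

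Other carbon genes gave few calls, where 14.4% of all genes were lower and 0.937% higher. PCK1, the key enzyme of gluconeogenesis, read 109, 147, 84.3 and 149.9 in GAL-NMD2, against 231, 404, 296 and 324 in nmd2D, with no overlap (log2 difference -1.26, SE 0.14, adjusted p = 0.00172). The lactate transporter gene JEN1 (-0.42) and the activator gene SIP4 (-0.67) were lower too, and the other 16 of 19 genes of gluconeogenesis and the glyoxylate cycle were not called. Of 17 measured genes of hexose transport and phosphorylation, HXK1 and EMI2 were higher (0.65 and 0.41) and the transporter gene HXT3 was lower (-0.50). Without replicate 2 none of these 3 was called (adjusted p = 0.0656 for HXK1, 0.128 for EMI2 and 0.0887 for HXT3). The pairing was needed for the calls of all 3 and for JEN1 and SIP4 (adjusted p of 0.236 to 0.622). JEN1 was also lost without replicate 2 or 3, and SIP4 without replicate 3. Of 17 genes of glycolysis 1 was lower, the pyruvate decarboxylase gene PDC5 (-0.76).

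In sulfur metabolism, 4 of 30 genes were lower (13.3%, against 14.4% of all genes) and none higher. With median centring 3 were lower and 11 higher, and without replicate 2 of both strains 2 were lower. JLP1, a dioxygenase that releases sulfite from sulfonates, read 9.7, 41.1, 20.2 and 52.4 in GAL-NMD2, against 86.8, 167, 166 and 192 in nmd2D, without overlap (log2 difference -1.90, SE 0.16, adjusted p = 0.000717). MET1, needed for the cofactor of sulfite reductase, had -1.13 (adjusted p = 0.0051). SOA1 (-0.82) and MET30 (-0.49), a ubiquitin ligase subunit that restrains the sulfur genes, were the others, and both calls were lost without the pairing (adjusted p = 0.106 and 0.0912). No fit of 3 pairs called MET30 (adjusted p of 0.0566 to 0.121), and SOA1 was not called without replicate 2, 3 or 4 (adjusted p of 0.0599 to 0.0826).

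Metal uptake genes moved in both directions. Of 28 measured iron genes, 7 were lower (25.0%, against 14.4% of all genes) and 3 higher (where 0.937% of all genes were). With median centring 4 were lower and 12 higher, and without replicate 2 of both strains 4 were lower and 3 higher. The ferric reductase gene FRE2 read 50.9, 108, 62.6 and 75.9 in GAL-NMD2, against 195, 286, 200.4 and 270.2 in nmd2D. The siderophore transporter gene ARN1 read 136, 172, 84.4 and 150.1 in GAL-NMD2, against 272, 482, 222 and 373 in nmd2D. These were separated (-1.51 (adjusted p = 0.00065) and -1.20 (adjusted p = 0.00105)), and the enterobactin transporter gene ENB1 had -1.22 (adjusted p = 0.00383), which was not called without the pairing (adjusted p = 0.125). FIT2, SIT1 and SMF3 were higher and are described with the rises. Of 16 genes on the copper and zinc list, 5 were lower (31.25%, against 14.4% of all genes). They were led by the zinc transporter gene ZRT2 (-1.37 (adjusted p = 0.00074)) and included the copper regulator MAC1 (-0.86 (adjusted p = 0.00312)). The other 3 were ALR1, its paralogue ALR2 (-1.05) and the copper transporter gene CTR3 (-0.53), which was named after its values were seen. ALR1 is a magnesium transporter gene, so the list and its share called lower are not of copper and zinc genes alone. No fit of 3 pairs called CTR3 (adjusted p of 0.0624 to 0.186), and the pairing was needed for MAC1, ALR1 and CTR3 (adjusted p of 0.0516 to 0.329). With median centring 4 of the 16 were lower and 4 higher.

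Some families of genes near chromosome ends were lower in most members. Of 16 measured PAU, DAN and TIR genes, 12 were lower (75%, against 14.4% of all genes) and none higher (median -1.06). These genes encode serine-rich cell wall mannoproteins. PAU7 read 92.6, 138, 76.6 and 113 in GAL-NMD2, against 417, 582, 430 and 493 in nmd2D. Its strains were apart (log2 difference -2.05, SE 0.10, adjusted p = 0.000398). PAU19, PAU16 and PAU13 had differences of -1.21, -1.18 and -1.17. For 10 of the 16 genes the probe set is of the kind that reads a family, so these are not 12 independent genes. All 4 measured genes of the aryl-alcohol dehydrogenase family AAD were lower, between -1.22 for AAD10 and -0.54 for AAD6. AAD6 was not called without the pairing (adjusted p = 0.121). Of 8 COS genes 1 was lower (12.5%, against 14.4% of all genes). It was COS10, which no fit of 3 pairs called (adjusted p of 0.0657 to 0.131).

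Genes of meiosis and sporulation, a programme that haploid cells do not run, were lower in 20 of 38 measured, and none was higher (median -0.34), where 14.4% of all genes were lower. With median centring 17 were lower and 2 higher. REC107, a protein needed for meiotic double-strand breaks and encoded with an intron that is spliced in meiosis, read 59.2, 64, 77.6 and 70.4 in GAL-NMD2, against 298, 234, 263 and 245 in nmd2D. SPR6 read 161, 168, 152 and 165 in GAL-NMD2, against 404, 414, 457 and 355 in nmd2D. SPO21, a component of the meiotic spindle pole, read 2.7, 26.3, 45.2 and 30.4 in GAL-NMD2, against 49.6, 72.3, 102 and 67.7 in nmd2D. All 3 separated the strains (-1.72 (adjusted p = 0.000562), -1.25 (adjusted p = 0.000804) and -1.17 (adjusted p = 0.00571)), though SPO21 was not called without the pairing (adjusted p = 0.0818). The master regulator IME1 averaged 49.5 ± 7.45 in GAL-NMD2 and 62.9 ± 2.06 in nmd2D (SD, n = 4 each), and was not called.

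In the mating pathway 8 of 34 measured genes were lower (23.5%, against 14.4% of all genes) and none higher (median -0.22, positive with median centring). With that centring 5 were lower and 8 higher, and without replicate 2 of both strains 4 were lower. KAR5, needed for nuclear fusion, read 40.7, 38, 56.1 and 48.6 in GAL-NMD2, against 197, 111, 185 and 173 in nmd2D, without overlap (log2 difference -1.54, SE 0.14, adjusted p = 0.000979). The kinase gene KSS1 (-0.99), the fusion gene FUS2 (-0.99) and the signalling inhibitor SST2 (-0.74) were lower too, but no fit of 3 pairs called SST2 (adjusted p of 0.0554 to 0.0754), nor did the fit without the pairing (adjusted p = 0.117). STE3, the a-factor receptor gene of alpha cells, averaged 18.7 ± 4.44 in GAL-NMD2 and 33.4 ± 9.13 in nmd2D and was called lower (-0.50 (adjusted p = 0.0232)). Its call was lost with median centring (adjusted p = 0.124) and without replicate 2 (adjusted p = 0.0611). The a-cell genes MFA2, STE2, STE6 and BAR1 were not called.

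Of 27 measured genes of peroxisome assembly, 9 were lower (33.3%, against 14.4% of all genes) and none higher. Their median was -0.15, positive with median centring and with quantile normalization. With median centring 6 were lower and 5 higher. PEX35 read 39.5, 47.9, 41.4 and 36.2 in GAL-NMD2, against 210.1, 153, 152 and 148 in nmd2D, with no overlap (log2 difference -1.66, SE 0.14, adjusted p = 0.000751). PEX28, PEX10 and PEX6 had differences of -1.24, -1.03 and -0.98. Of 48 splicing genes 4 were lower (8.33%). The largest was CDC40, a second-step splicing factor (-1.34 (adjusted p = 0.00278)), followed by the core snRNP gene SMD1 (-1.0), the U2 snRNP gene MSL1 (-0.90) and the helicase gene PRP5 (-0.61), which no fit of 3 pairs called (adjusted p of 0.0674 to 0.0794). With median centring 3 of the 48 were lower and 5 higher.

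Large groups of highly expressed genes held few calls on the deposited scale, where 14.4% of all genes were lower and 0.937% higher. Of 80 measured ribosomal protein genes 1 was lower, RPL22B (-0.59), and 2 were higher, RPS1B (0.42) and RPL14B (0.36), and the median was 0.17. No fit of 3 pairs called RPL14B (adjusted p of 0.0892 to 0.114), RPS1B was not called without replicate 2, 3 or 4 (adjusted p of 0.11 to 0.146), and without the pairing the calls lost were RPL22B, RPS1B and RPL14B (adjusted p of 0.118 to 0.563). With median centring 50 of the 80 were called higher. RPL22B is a copy with an intron, and its strains overlapped. None of the 56 mitochondrial ribosomal protein genes was called (median 0.16), nor any of the 14 measured genes of the tricarboxylic acid cycle. With median centring 39 of the 56 and 4 of the 14 were called higher, as were 13 of 41 respiratory chain genes. On the deposited scale the 1 call among the respiratory chain genes was SHH4, a relative of a succinate dehydrogenase subunit, which read 15.5, 65.3, 36.1 and 63 in GAL-NMD2, against 127, 270.5, 176 and 163 in nmd2D and did not overlap (log2 difference -1.76, SE 0.18, adjusted p = 0.00119).

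The remaining groups held few calls, where 14.4% of all genes were lower and 0.937% higher. Of 36 genes of the environmental stress response 4 were lower, with the aldehyde dehydrogenase gene ALD3 at -1.08 (adjusted p = 0.00621). Another 2 were higher, named after their values were seen: GPD1, an enzyme of glycerol synthesis (0.45 (adjusted p = 0.019)), and the aldose reductase gene GRE3 (0.36 (adjusted p = 0.0373)). Of 27 heat shock and chaperone genes 3 were lower, the Hsp70 genes SSA3 (-0.93), ECM10 (-0.85) and SSA4 (-0.76). In phosphate uptake 2 of 16 were lower, the acid phosphatase gene PHO5 (-1.16) and the transporter gene PHO89 (-0.95). Of 34 proteasome genes RPN13 was lower (-0.84) and RPN2 and PRE1 (0.37) were higher. Of 84 ribosome biogenesis genes NOC4 was lower (-0.66) and NOP16 was higher, and of 23 ergosterol genes ERG4 was higher (0.64). None of the 5 measured histone genes was called. At least 1 fit of 3 pairs missed GPD1, GRE3, PHO89, RPN13, PRE1 and ERG4 (adjusted p of 0.0516 to 0.155). The fit without the pairing missed these 6 and PHO5 (adjusted p = 0.175). With median centring more genes were called higher, among them 19 of the 36 stress genes, 14 of the 27 chaperone genes, 23 of the 34 proteasome genes, 23 of the 84 ribosome biogenesis genes and 16 of the 23 ergosterol genes.

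**Figure D3:**
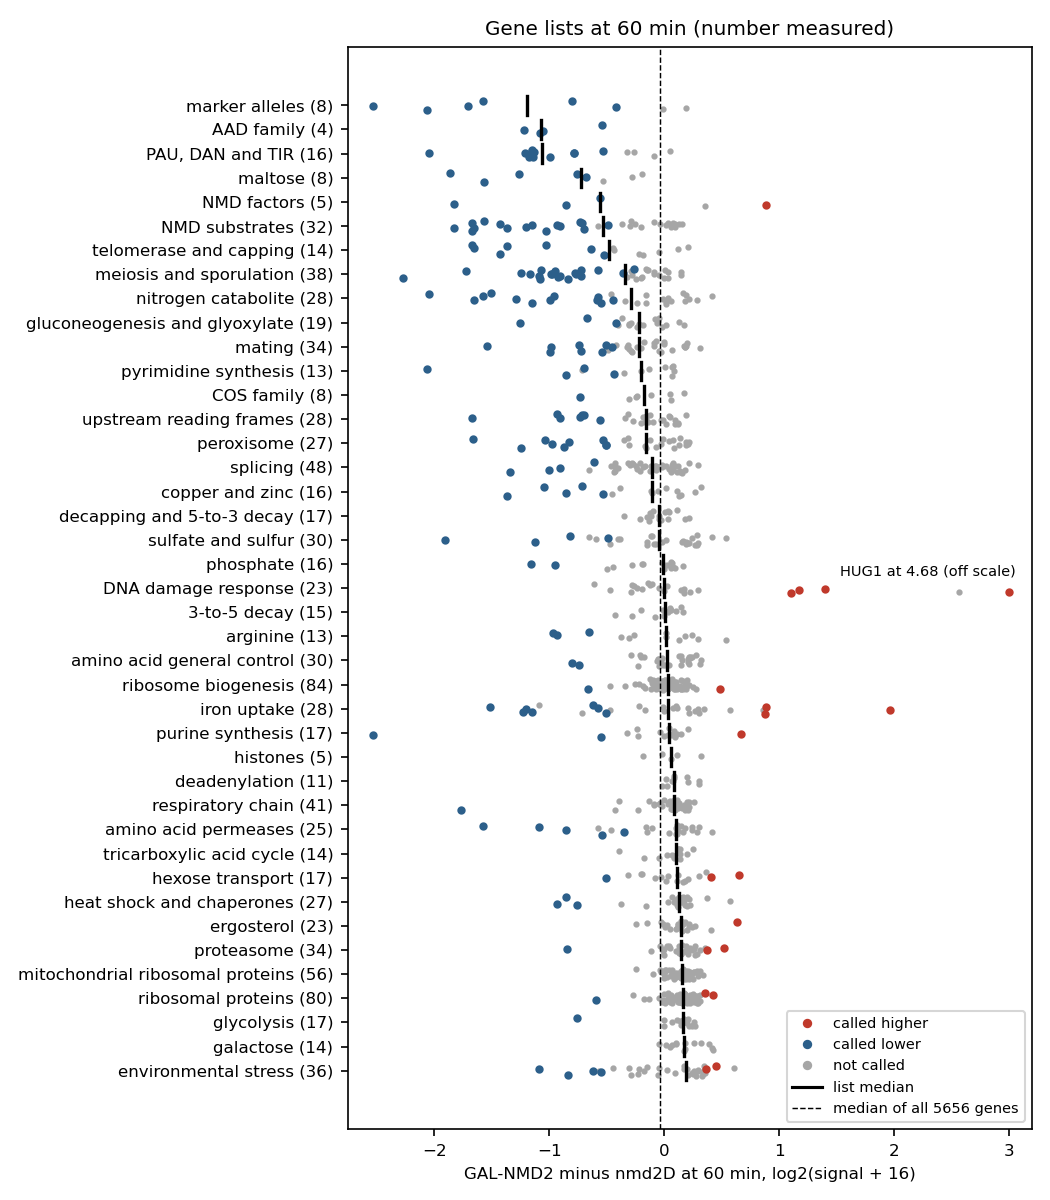
Log2 difference at 60 min, GAL-NMD2 minus nmd2D (horizontal axis), of every measured member of the gene groups (points, called ones in colour and others grey) with the median of each group as a bar, and the median of all 5656 genes as a line. The medians of the marker alleles (-1.19), AAD genes (-1.07) and PAU, DAN and TIR genes (-1.06) lie farthest below 0, and HUG1 at 4.68 is off the scale.

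Rises were few, and the largest of them were absent from 1 replicate. HUG1, a small protein that inhibits ribonucleotide reductase and is a classic reporter of DNA damage signalling, read 2951, 33.4, 4621 and 3846 in GAL-NMD2, against 23.4, 37.2, 30.9 and 45.6 in nmd2D. It was high in GAL-NMD2 replicates 1, 3 and 4 and at the level of nmd2D in GAL-NMD2 replicate 2. It was called all the same (log2 difference 4.68, SE 1.04, adjusted p = 0.0238), and without replicate 2 of both strains its difference was 6.28 (adjusted p = 0.000386). Without replicate 1, 3 or 4 it was between 4.03 and 4.25 and no longer called (adjusted p of 0.0625 to 0.113), and without the pairing the adjusted p was 0.0552.

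The genes of ribonucleotide reductase, which makes the precursors of DNA, showed the same split of replicates. RNR2, a small subunit, read 3926, 1378, 4767 and 3198 in GAL-NMD2, against 1354, 1302, 1287 and 1357 in nmd2D. RNR4, the other small subunit, read 3716, 1250.1, 3452 and 2996 in GAL-NMD2, against 913, 1037, 979 and 1027 in nmd2D. Both were higher in GAL-NMD2 without overlap (1.18 (adjusted p = 0.0239) and 1.40 (adjusted p = 0.0123)), with replicate 2 just above the nmd2D values. RFX1, the repressor of these genes and a target of its own repression, read 214, 57.1, 235 and 194 in GAL-NMD2, against 70.6, 59.1, 70.6 and 58.1 in nmd2D. It was called (log2 difference 1.10, SE 0.27, adjusted p = 0.034), and GAL-NMD2 replicate 2 lay just below the nmd2D values. Without replicate 2 the differences were 1.54 (adjusted p = 0.00846) for RNR2, 1.78 (adjusted p = 0.00846) for RNR4 and 1.48 (adjusted p = 0.00846) for RFX1. The calls of RNR2 and RFX1 were lost without replicate 1, 3 or 4 (adjusted p of 0.0641 to 0.109 and 0.112 to 0.134), and that of RNR4 without replicate 1 (adjusted p = 0.062). Without the pairing the calls of RNR2 and RFX1 (adjusted p of 0.0632 to 0.113) were lost.

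RNR3, the alternative large subunit, was singled out after its values were seen. It read 1855, 38.8, 1042 and 856 in GAL-NMD2, against 33.4, 93.3, 65.8 and 159.8 in nmd2D and was not called (log2 difference 2.56, SE 0.87, adjusted p = 0.0991). Without replicate 2 its difference was 3.75 (adjusted p = 0.0166). The large subunit gene RNR1 had 0.14 (adjusted p = 0.582). Of 23 measured genes of the DNA damage response these 4 were called higher, HUG1, RNR2, RNR4 and RFX1, and none was lower. Over all genes 0.937% were higher and 14.4% lower. The other genes of the list, such as the repair genes RAD54 (-0.19) and MAG1 (-0.26), were not called, and the median of the list was 0.00.

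Genes of other functions had the same pattern over replicates. ATR2, a paralogue of a boron exporter, and YPR015C were also chosen after their values were seen. ATR2 read 739, 16.7, 464 and 478 in GAL-NMD2, against 9.6, 19.8, 22.5 and 20.9 in nmd2D. YPR015C read 84.9, 17.6, 162 and 172 in GAL-NMD2, against 12.2, 18.2, 15.2 and 19.9 in nmd2D. Both were called (3.03 (adjusted p = 0.0294) and 1.68 (adjusted p = 0.0294)) on replicates 1, 3 and 4, and leaving out any 1 of those ended both calls (adjusted p of 0.0748 to 0.123 and 0.083 to 0.116), as did leaving out the pairing (adjusted p = 0.0632 and 0.0707). AMF1, which encodes an ammonium transporter, read 72.6, 23.4, 76.9 and 102 in GAL-NMD2, against 11.2, 21.4, 12.5 and 16.2 in nmd2D, and the fumarate reductase gene FRD1 read 1405, 698, 1306 and 1457 in GAL-NMD2, against 406, 552, 520.4 and 626 in nmd2D. For these the lowest GAL-NMD2 value was again that of replicate 2, though above all nmd2D values (1.34 (adjusted p = 0.0229) and 1.14 (adjusted p = 0.0105)). The call of AMF1 was lost without replicate 1, 3 or 4 (adjusted p of 0.0687 to 0.103). MIN7 read 508, 236, 659.7 and 1153 in GAL-NMD2, against 87.5, 154, 125 and 179.9 in nmd2D, with its lowest GAL-NMD2 value in replicate 2 too (1.94 (adjusted p = 0.00669)).

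Differences of similar size were measured at 0, 20 and 40 min, without a call at 0 or 20 min. HUG1 had differences of 4.78, 4.93, 4.63 and 4.68 at 0, 20, 40 and 60 min, RNR4 of 1.10, 1.15, 1.31 and 1.40, and RFX1 of 1.41, 1.32, 1.20 and 1.10. MIN7 had 1.73, 1.84, 2.26 and 1.94 and FRD1 0.98, 0.95, 1.04 and 1.14. At 0 min the adjusted p of these 5 ran from 0.501 for FRD1 to 0.848 for RFX1, and the SE of HUG1 was 0.93. Their difference at 60 min minus that at 0 min was -0.10 for HUG1 (adjusted p = 0.992) and 0.30 for RNR4 (adjusted p = 0.787). Whether GAL-NMD2 replicate 2 came from a culture that differed from the others was not tested.

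Iron genes supplied further rises. FIT2, a cell wall protein that retains siderophores, read 1109, 120, 190.2 and 1340.1 in GAL-NMD2, against 116, 116, 70.9 and 106 in nmd2D. It was high in replicates 1 and 4 of GAL-NMD2 and close to nmd2D in replicates 2 and 3, and its call was marginal (log2 difference 1.96, SE 0.53, adjusted p = 0.0477). Without replicate 1, 3 or 4 it was lost (adjusted p of 0.0575 to 0.18). The siderophore transporter SIT1 and the vacuolar iron transporter SMF3 are given as the other called rises of the iron list, chosen after their values were seen. SIT1 read 955, 400.5, 452 and 1112 in GAL-NMD2, against 472, 326, 281 and 368 in nmd2D and SMF3 read 928, 959, 1184 and 2132 in GAL-NMD2, against 504, 785, 486 and 955 in nmd2D. Both were higher in each of the 4 pairs although the strains overlapped (0.87 (adjusted p = 0.0233) and 0.89 (adjusted p = 0.0105)). SIT1 was not called without replicate 1 (adjusted p = 0.0964). None of the 3 was called without the pairing, which gave FIT2, SIT1 and SMF3 (adjusted p of 0.135 to 0.179).

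SUR7, a plasma membrane protein of eisosomes, was a rise of another kind. It read 2005, 1584, 1079.8 and 1712 in GAL-NMD2, against 758, 1003, 334 and 824 in nmd2D. No replicate overlapped (log2 difference 1.18, SE 0.16, adjusted p = 0.00344), and its difference at 0 min was 0.10. Without the pairing SUR7 was not called (adjusted p = 0.0608). SNQ2, a multidrug transporter, had 0.63 (adjusted p = 0.00822) without overlap. RPN2 of the proteasome (0.52 (adjusted p = 0.0435)) and NOP16 of ribosome assembly (0.48 (adjusted p = 0.0325)) were close to the threshold. The call of RPN2 was lost without replicate 2, 3 or 4 (adjusted p of 0.122 to 0.159), and no fit of 3 pairs called NOP16 (adjusted p of 0.0812 to 0.108). Both were lost without the pairing too (adjusted p = 0.154 and 0.0815).

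Rises included probe sets that read families. Of 586 probe sets of the family kind, 51 were called higher (8.70%) and 67 lower (11.4%), against 60 (0.795%) and 1099 (14.6%) of the 7545 probe sets of the plain kind. Of those 51, 48 are not annotated to 1 gene. YGR109W-B, a reading frame of the Ty3 retrotransposon, was named from 2 of its 23 probe sets. They read 1552, 1373, 1636 and 1785 in GAL-NMD2, against 914, 1166, 990.2 and 747 in nmd2D for the first and 1175, 1449, 1666 and 1664 in GAL-NMD2, against 836, 976, 1051 and 754 in nmd2D for the second (0.74 (adjusted p = 0.0185) and 0.71 (adjusted p = 0.00825)). Another 2 of its probe sets were called lower, so the direction for this element depends on the probe set. The first was not called without replicate 1 or 3 (adjusted p of 0.0547 to 0.0744).

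**Figure D4:**
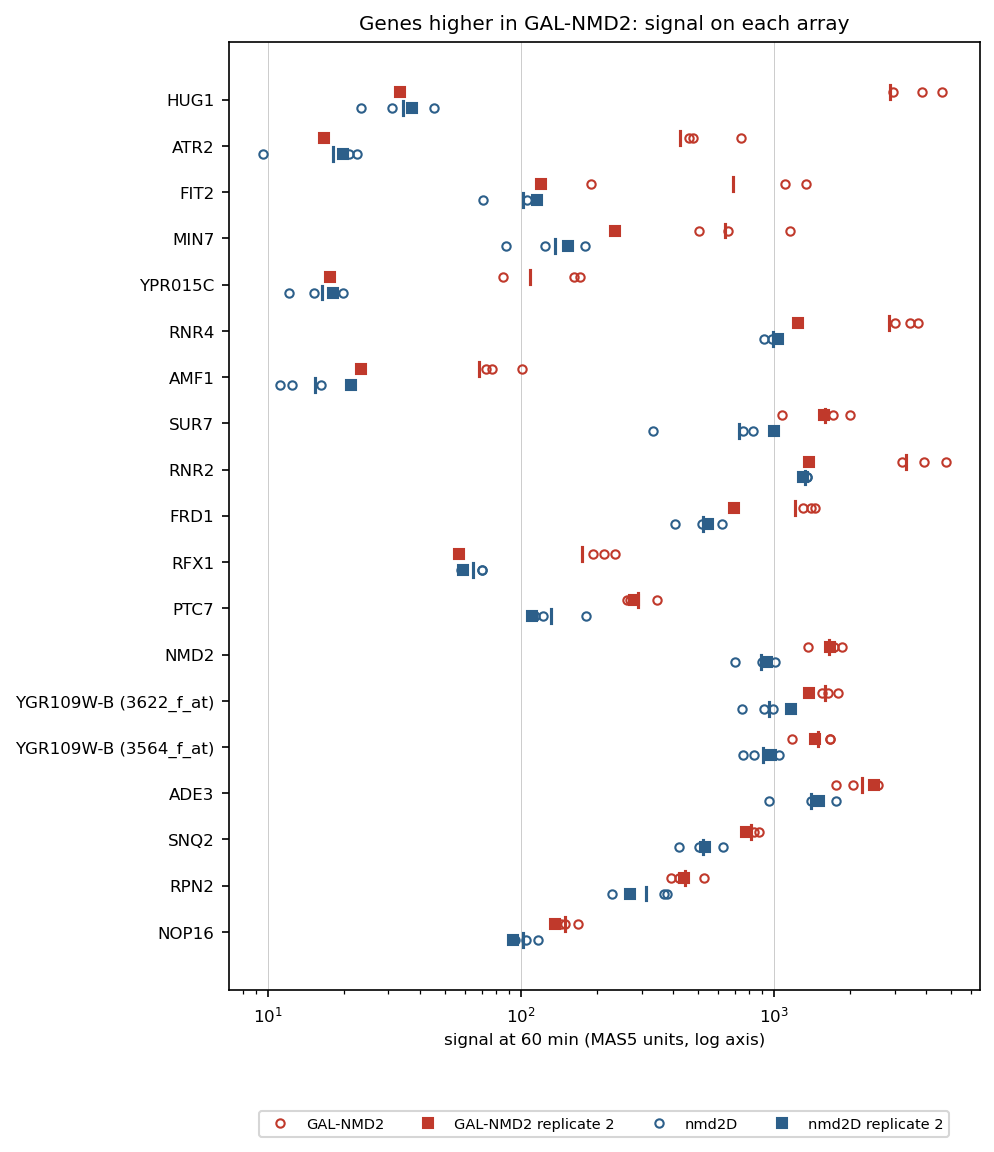
Signal at 60 min on each array (horizontal log axis, MAS5 units) of genes higher in GAL-NMD2, with GAL-NMD2 arrays above nmd2D arrays in each row, replicate 2 drawn as squares and a bar at each group mean. In the rows of HUG1, ATR2, YPR015C and RFX1 the GAL-NMD2 square lies at the level of the nmd2D values. The other rows, such as SUR7 and NMD2, were chosen among probe sets without overlap.

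PTC7, a protein phosphatase gene, differed between the strains at 0, 20, 40 and 60 min. At 60 min it read 269, 281, 345 and 262 in GAL-NMD2, against 123, 111, 180.4 and 113 in nmd2D, without overlap (log2 difference 1.06, SE 0.11, adjusted p = 0.00123). Its differences at 0, 20, 40 and 60 min were 2.19, 1.71, 1.08 and 1.06, so it was more unequal before the course than at its end. It was the 1 probe set called at 0 min (0 lower, 1 higher, which is 0.0108%, with 444 at an unadjusted p under 0.05).

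The strains were also compared at 0, 20 and 40 min, and not at 10 min. At 20 min 1 probe set was lower (0.0108%) and 1 was higher (0.0108%). The lower 1 was PNS1, at -1.91 then and -1.16 (adjusted p = 0.0542) at 60 min, and the higher 1 was PTC7. The count at 20 min depends on the fit: these 2 calls became 483 in all 40 arrays with the pairing, 33 in all 40 arrays without it, 197 with the lowest 20% of signals left out and 0 on the same arrays without the pairing. At 40 min 815 were lower (8.79%) and 53 higher (0.571%). Of the 1296 lower at 60 min, 753 were lower at 40 min (58.1%), which is 92.4% of those at 40 min. Of the 118 higher at 60 min, 20 were higher at 40 min (16.9%), which is 37.7% of those at 40 min.

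The 1296 probe sets called lower at 60 min had median differences of -0.10, -0.33, -0.65 and -0.79 at 0, 20, 40 and 60 min. The 118 called higher had 0.18, 0.09, 0.32 and 0.53. The values at 60 min chose these sets and are a description. Single genes had different values over time, and no test compared their courses. None of those that follow was called at 20 min, or for the difference at 60 min minus that at 40 min. ADE2 had 0.00, -0.72, -2.01 and -2.53 at 0, 20, 40 and 60 min. HRT1 had -0.06, -0.16, -1.49 and -1.85, with little at 20 min. COX19 had -0.15, -1.0, -1.76 and -1.67, and was as low at 40 min as at 60 min. EST2 had -0.28, -0.49, -0.41 and -1.03.

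The strain difference at 60 min was then set against that at 0 min, over 16 arrays. For 652 probe sets it was lower at 60 min (7.03%) and for 6 it was higher (0.0647%). Both comparisons use the same arrays at 60 min. In the fits across times, arrays of the same strain and replicate number were not paired. Lasting differences between such series therefore add to the spread. Of the 15 largest falls, 14 were called here, from YER187W at -1.49 to ADE2 at -2.53, and the exception was URA3 at -0.25 (adjusted p = 0.856). Of the 15 largest rises, SUR7 (1.08) and NMD2 (0.69) were called higher and PTC7 was called lower (-1.13).

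Against 40 min, no probe set was called (limma, 0 lower and 0 higher, 0%), and 361 had an unadjusted p under 0.05. Without the pairing 117 did, and in a fit of all 40 arrays with the pairing 331 did, again with no call. None of these fits paired arrays of the same strain and replicate number across times. The lack of calls therefore does not show that no RNA moved after 40 min. For ADE2 the difference at 60 min minus that at 40 min was -0.53 (adjusted p = 0.964).

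**Figure D5:**
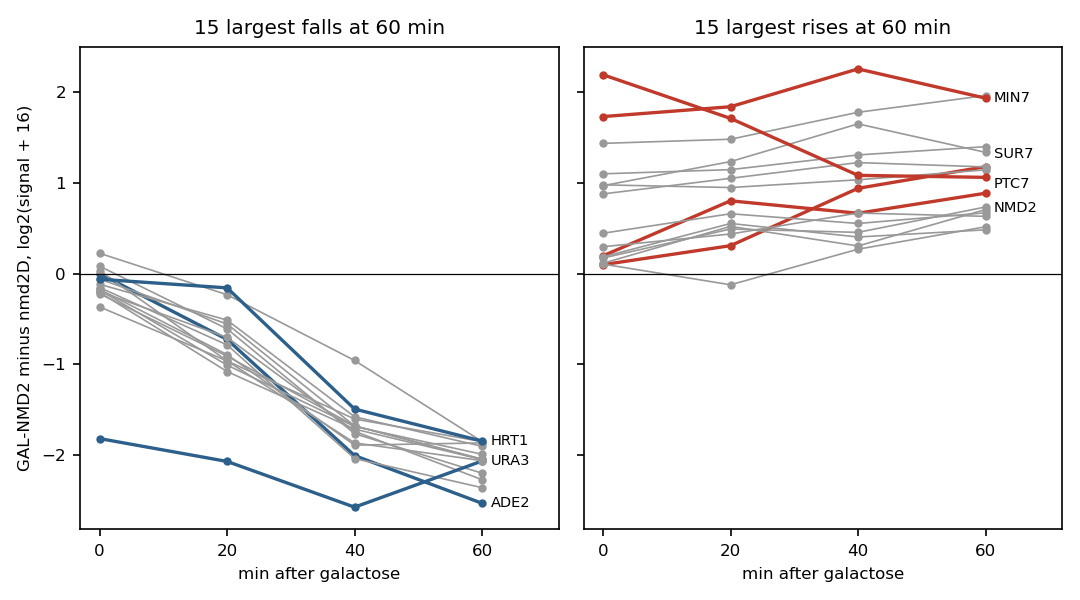
Log2 difference, GAL-NMD2 minus nmd2D (vertical axis), at 0, 20, 40 and 60 min (horizontal axis) of the 15 largest falls and the 15 largest rises at 60 min. Most falls start near 0 and end below -1.8, and URA3 starts at -1.82. All 15 rises lie above 0 at 0 min, from 0.10 for SUR7 to 2.19 for PTC7, and of these PTC7 alone was called there.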

How the data were processed

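Hot phenol was used to extract total RNA, of which 6 ug gave the biotin-labelled cRNA for Affymetrix yeast arrays, per the labels' protocols. The authors' deposited intensities are MAS5 signals, per the submitters' processing notes, with neither version nor settings named in what was used here. The mean of the values between the 2nd and 98th percentiles was 250.155 to 250.222 on all 40 arrays, so the authors' intensities carry a scaling to 1 trimmed mean. Signal over background and the number of arrays limit the precision; detection calls were not used here. Probe sets were named from the platform annotation, updated through the R64 gene table: of 9275 non-control probe sets, 6504 had 1 gene, 328 several and 2443 none. No genome sequence was used, so cross-hybridization was not examined.

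Intensities were transformed here as log2(intensity + 16) and fitted with limma 3.58.1 in R 4.3.3 (lmFit, eBayes with trend), with strain and replicate number as terms on the 8 arrays at 60 min, and likewise at 0, 20 and 40 min. Differences between times used the 16 arrays of both times, with replicate number as a term. Arrays of the same strain and replicate number were not paired across times. Benjamini-Hochberg adjusted p under 0.05 over all 9275 was called, with no filter on low signals. Deviations of same-numbered arrays from their group means correlated with r of 0.395 to 0.732, against -0.449 to 0.378 for the other pairings, so the numbers were taken as pairs. This pairing comes from the replicate numbers in the labels. Gene lists used 1 probe set per gene, the brightest over all 40 arrays, and were not tested.

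Named genes were NMD2, HIS3, URA3 and 4 galactose genes as checks. Beyond those, the 15 largest falls and 15 largest rises were named among probe sets of 1 gene that were called, had 1 sign in all 4 pairs and no overlap, and were called the same way after median centring. Up to 4 called members of each of 41 lists and all members of 3 lists were named too. Members, lists and rules were chosen with earlier results of these data known. The fits were also run on simulated data with known changes, and the outcome is not given here. Alternatives were no pairing, all 40 arrays, other scalings and pseudocounts (1 and 64), a filter on the lowest 20%, no intensity trend and leaving out each replicate.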

Additional observations from a re-analysis of the deposited data

Results flagged for a closer look

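In 324 groups of 4 arrays, formed by the 162 named probe sets in each strain at 60 min, 23 arrays stood apart from the other 3 by Dixon's ratio on the log2 scale. Chance flags about 1 in 20 groups. GAL-NMD2 replicate 2 was low for HUG1 (33.4, the others 2951 to 4621), ATR2 (16.7, the others 464 to 739), RFX1 (57.1, the others 194 to 235) and FRD1 (698, the others 1306 to 1457). The same array was high for PPR1 (94.3), ALR2 (94.9) and PEX6 (334). GAL-NMD2 replicate 1 stood low for SIP4 (28.1), SSA3 (37) and SMD1 (56.5) and high for FUS2 (26.4). GAL-NMD2 replicate 3 was high for MAK31 (384), and replicate 4 was low for KCH1 (32.7) and high for HXK1 (2054) and PRE1 (631). In nmd2D, replicate 1 was low for CPA1 (2171), LEU3 (56.9), MAC1 (149) and GPD1 (601) and high for PEX35 (210.1). Replicate 2 of nmd2D was low for SSY5 (98.3), replicate 3 was low for KSS1 (47.7), and replicate 4 was high for AAD14 (591).

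The strain difference at 60 min departed from that at 0 min, by the test of the difference itself, for 652 probe sets in the lower direction and 6 in the higher one. Among the named falls the change of the difference was -2.53 for ADE2, -2.28 for PET18, -2.21 for YIR043C, -2.09 for RRT13, -2.08 for YNL162W-A and -2.07 for ISC10. It was -1.99 for PPT2, -1.84 for PAU7, -1.82 for DAL5, -1.81 for YEL073C, -1.79 for JLP1, -1.78 for HRT1, -1.69 for MAL11 and -1.49 for YER187W. Among the named rises it was 1.08 for SUR7, 0.69 for NMD2 and -1.13 for PTC7.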

How the results depend on the processing

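The 1296 falls became 671 without the replicate block, 863 with median centring and 818 with quantile normalization, and 781 to 1049 when 1 replicate was left out. The 118 rises became 16 without the block, 30 in all 40 arrays without it, 2084 with median centring, 315 with quantile normalization and 291 with the median deviation shift (chosen after seeing the data), and 28 to 104 when 1 replicate was left out. The 658 calls of 60 min against 0 min became 176 without the block, 256 in all 40 arrays without it and 437 with median centring, and 270 to 546 when 1 replicate was left out. The comparison with 40 min gave 0 calls under every setting, none of which paired arrays of the same strain and replicate number across times. The 868 calls at 40 min became 382 without the block and 1438 in all 40 arrays with it, and 390 to 678 when 1 replicate was left out. The 1 call at 0 min became 5 in all 40 arrays with the block, 6 with median centring and 11 with the low-signal filter, and 1 to 14 when 1 replicate was left out. The 2 calls at 20 min became 0 without the block, 33 and 483 in all 40 arrays without and with it, 32 with median centring, 54 with the median deviation shift, 23 and 1 with pseudocounts of 1 and 64, 197 with the low-signal filter and 0 with no trend, and 0 to 15 when 1 replicate was left out. Of the 137 named probe sets that were called, 57 lost the call without the block, and 30 to 44 did when 1 replicate was left out, which also leaves fewer arrays.

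Signs turned for uncalled differences. With median centring these were REV7 (0.0035), KCH1 (0.059), MER1 (0.17), SRB7 (0.23) and LYS2 (0.25). With quantile normalization they were GAL1 (-0.018), GAL10 (-0.086), GAL2 (-0.10), KCH1 (0.025), CBF5 (-0.048), MER1 (0.0013), RPS0B (-0.037), SRB7 (0.16) and RPL28 (-0.086). The median deviation shift turned SRB7 (0.045) and LYS2 (0.068). Leaving out 1 replicate gave GAL10 from -0.050 to 0.15, OCA4 from -0.047 to 0.056, ATX1 from -0.0079 to 0.15, SRB7 from -0.090 to 0.043, RPL28 from -0.032 to 0.083, LYS2 from -0.10 to 0.16, and the change of FIT2 against 0 min from -0.10 to 1.00. The causes were not tested.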
